A study of Homo sapiens with 13 samples.

Results

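Lysine acetyltransferases transfer the acetyl group of acetyl-CoA to lysine residues of histones and of many other proteins. The 9 enzymes described here were EP300, CREBBP, KAT2A, KAT2B, KAT5, HAT1, NCOA1, NCOA3 and TAF1, and they were found on the array by their gene symbols alone, without regard to their signal. All 9 of the 25940 gene names on the array were present, with 12 of its 34127 probes, and 11 of these 12 probes were among the 22751 that passed the filter on dim signals. RNA was measured on 13 single-colour Agilent arrays in CCRF-CEM, a T cell leukemia line of human origin. Parental cells (CEM PA) were either mock-treated (3 arrays) or exposed to 5 nM FK866, an inhibitor of the NAD+ producing enzyme NAMPT, for 48 h (2 arrays). The resistant derivative (CEM RES) was a population selected in rising doses of FK866 and labelled as resistant to 100 nM. It was mock-treated or given 5 nM FK866 for 48 h on 4 arrays each. The study's methods state that CEM RES was maintained in FK866, and its mock-treated cells had therefore met the drug before. The labels number the arrays as biological replicates, and nothing states whether the numbers stand for cultures started independently.

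EP300 (p300) and CREBBP (CBP) are large paralogs that are recruited by many transcription factors and acetylate histones H3 and H4. KAT2A (GCN5) and KAT2B (PCAF) are the alternative catalytic subunits of the SAGA and ATAC coactivator complexes, and KAT5 (TIP60) is that of the NuA4 complex, which acts in transcription and in the DNA damage response. HAT1 acetylates newly made histone H4 before it enters chromatin, NCOA1 and NCOA3 are nuclear receptor coactivators with reported acetyltransferase activity, and TAF1 is the large scaffold subunit of the general transcription factor TFIID. NAD+ is the cosubstrate of sirtuins, the deacetylases that remove the marks these enzymes write.

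The probes set which transcript ends were read, so their positions are given first, on the hg19 build of the array design. The EP300 probe lay at chr22:41575033-41575092 (plus strand, from base 7712 of the transcript) and the CREBBP probe at chr16:3775112-3775171 (minus strand). KAT2A was read at chr17:40265235-40265294 (minus strand), KAT2B at chr3:20195519-20195578, KAT5 at chr11:65486362-65486421, HAT1 at chr2:172848187-172848246 and NCOA3 at chr20:46283630-46283689 (all plus strand). NCOA1 and TAF1 had more than 1 probe. The upstream NCOA1 probe (chr2:24980905-24980964) was designed on transcript variant 3 from its base 4202, and the downstream one (chr2:24993512-24993571) on transcript variant 2 from its base 6892. The upstream TAF1 probe (chrX:70680545-70680604) starts at base 5401 and the downstream one (chrX:70685417-70685476) at base 7253 of the same transcript variant. The third TAF1 probe (chrX:70750082-70750141), on another transcript, was well above background on 0 of 13 arrays and was not tested. The first 30 of the 60 bases of 6 probes are shown 5′ to 3′ as the array files give them. These are the probes of EP300 and KAT5, which differed strongly between the lines, and the paired probes of NCOA1 and TAF1.
EP300: tttttgaatctttcgtagcctaaaagacaa
KAT5: cagcatcaagaaggaggatgtcatctccac
NCOA1 upstream: gagcatcaccgtttccatggcaggtggaaa
NCOA1 downstream: ttgccaaagcccaaattaacgagtattata
TAF1 upstream: gcatgcttcaggagaacacaaggatggaca
TAF1 downstream: ggctgagatgagactgaaagatgggcagga

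Signals are given as log2 of the background-corrected intensity after quantile normalisation over the 13 arrays, and differences as log2 differences of group means. Each probe reads its own scale, so levels of different probes are not compared. A probe was called where limma gave an adjusted p under 0.05, with the Benjamini-Hochberg adjustment over all 22751 probes. Each array had 43118 spots besides its controls, of which 61.36% to 77.09% were well above background and 0 were saturated. Mock CEM RES replicate 1 carried 773 spots marked as outliers, against 195 to 344 on the other arrays. CEM PA was scanned in sessions 1 and 2 and CEM RES in session 3, so the cell line and the session cannot be told apart in any difference between the lines. All 10 T cell markers checked, among them CD3D and LCK, were well above background on all 13 arrays, and so were 6 of the 13 other-lineage markers on the array. The signals of the other-lineage markers were also summed on each array on the linear scale. The log2 of this sum was 12.46 to 12.59 on mock CEM PA and 12.45 to 12.56 on FK866 CEM PA arrays. On CEM RES arrays it was 12.10 to 12.48 in mock cells and 11.91 to 12.17 with FK866. Among these markers EPCAM, CDH1 and COL1A1 were well above background on 0 arrays. The part of these marker levels in the differences between the lines was not tested.

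**Figure D1:**
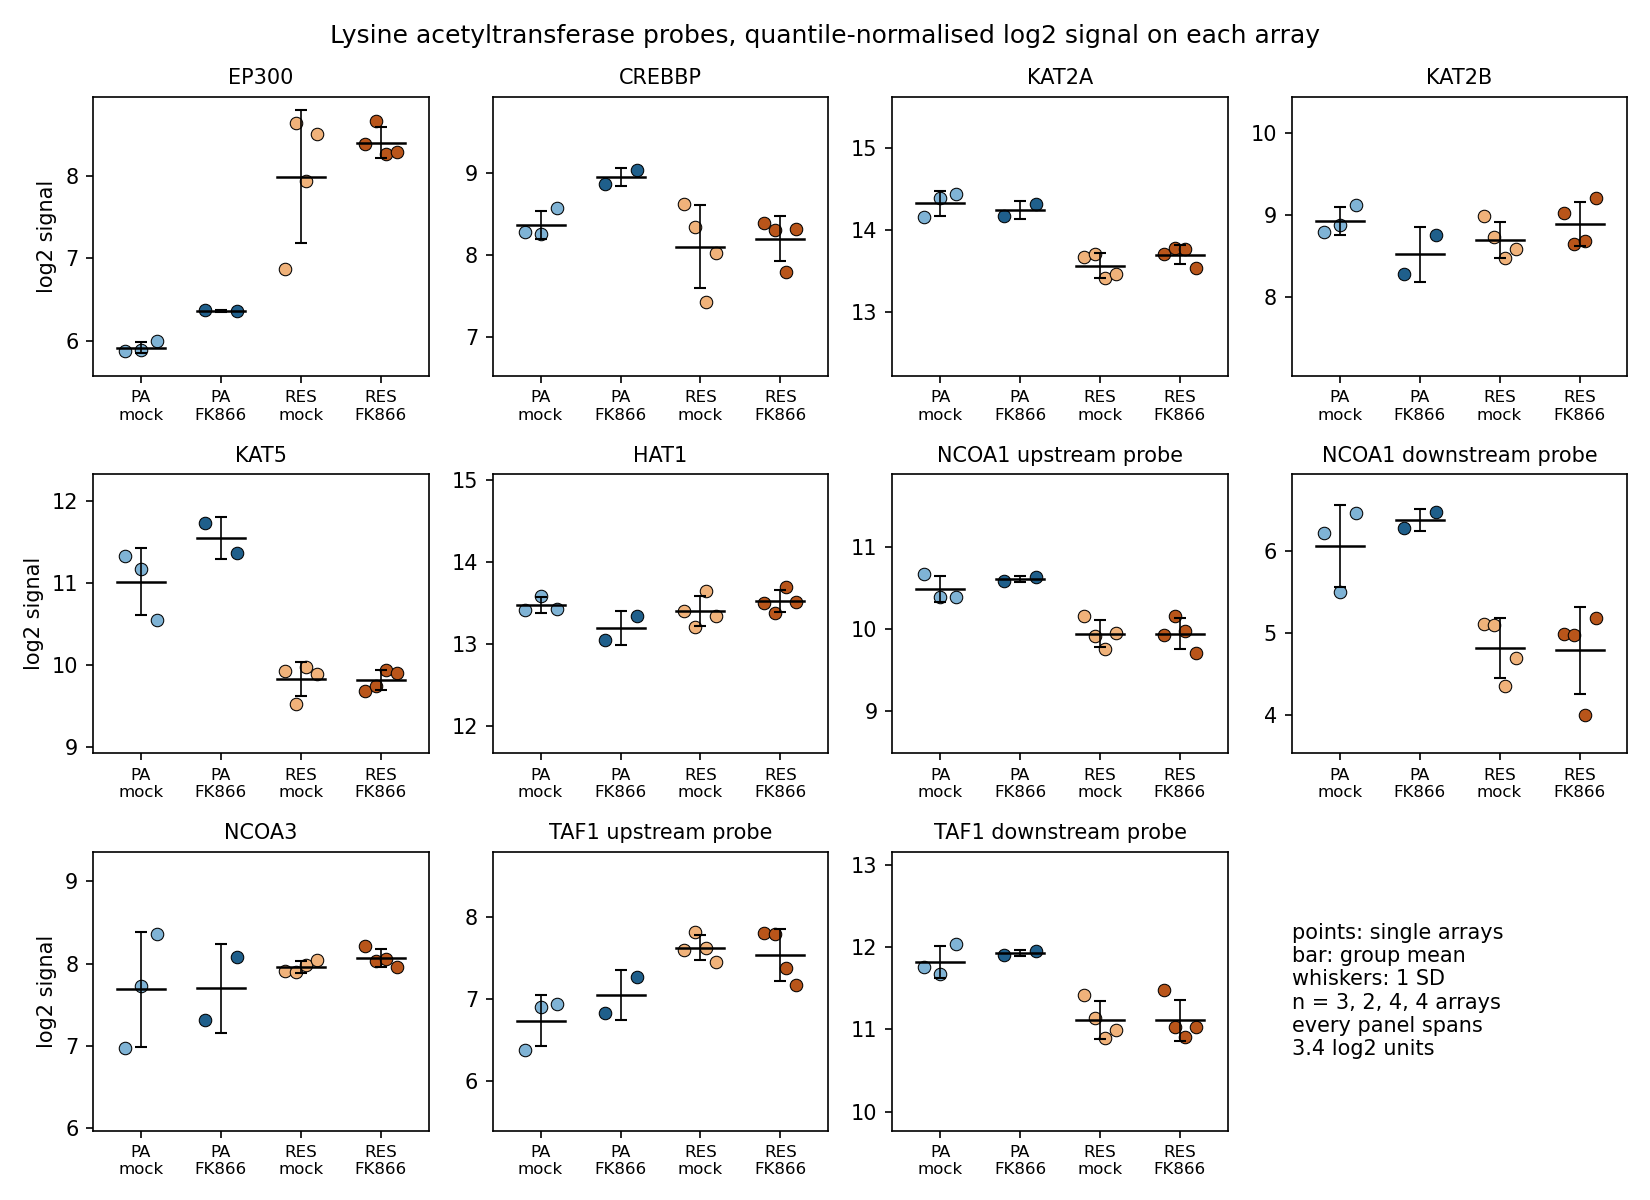
Quantile-normalised log2 signal (vertical axis) of the 11 kept probes of the 9 acetyltransferases in the 4 groups (horizontal axis). Points are single arrays, bars are group means and whiskers are 1 SD (3, 2, 4 and 4 arrays). EP300 lies above all CEM PA arrays on every CEM RES array, whereas KAT5, KAT2A, both NCOA1 probes and the downstream TAF1 probe lie below all CEM PA arrays on every CEM RES array.

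The first comparison was between the lines, without and with FK866, and asked how the expression of these enzymes differed in the resistant population. In mock-treated cells EP300 and the upstream TAF1 probe were higher in CEM RES, whereas KAT5, KAT2A, both NCOA1 probes and the downstream TAF1 probe were lower. This made 7 of 11 probes and 5 of 9 genes called, where 47.6% of all probes were called. By direction, 2 of the 11 were higher (24.9% of all probes) and 5 were lower (22.7% of all probes). The median log2 difference was -0.27 over the 11 probes and 0.04 over all probes. Differences between the lines were widespread on the array, and these counts are to be read against that. The same 7 of 11 probes had groups that did not overlap, where 48.8% of all probes did not.

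EP300 differed most. Its log2 signal was 5.87, 5.88 and 5.99 on the mock CEM PA arrays, 6.87, 8.66, 7.94 and 8.51 on the mock CEM RES arrays, 6.37 and 6.35 with FK866 in CEM PA, and 8.40, 8.68, 8.27 and 8.30 with FK866 in CEM RES. The 8 CEM RES arrays were all above the 5 CEM PA arrays, and mock CEM RES replicate 1, the array with the most outlier spots, was the closest to CEM PA. In mock cells EP300 was 4.24-fold higher in CEM RES (log2 difference 2.08, standard error 0.33, limma adjusted p = 0.000347). Without that replicate the log2 difference was 2.46 (limma adjusted p = 7.8e-06). With FK866 the difference was 2.05 (standard error 0.38, limma adjusted p = 0.00148). When the background was corrected with normexp the mock difference was 1.38 (limma adjusted p = 0.0042).

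CREBBP, the paralog of EP300, was not called higher. Its log2 signal was 8.27, 8.25 and 8.56 in mock CEM PA and 8.61, 8.33, 7.43 and 8.02 in mock CEM RES, and the groups overlapped. The log2 difference was -0.27 with a 95% confidence interval from -0.81 to 0.28 (limma adjusted p = 0.405). With FK866 it was 8.87 and 9.03 in CEM PA against 8.39, 8.29, 7.78 and 8.32 in CEM RES. These groups did not overlap, yet the log2 difference of -0.75 had an adjusted p of 0.056 in limma and was called in 7 of the 27 alternative fits. Within each array, the log2 signal of EP300 less that of CREBBP was 2.35 higher in mock CEM RES than in mock CEM PA and 2.80 higher with FK866. This difference did not overlap between the 5 CEM PA and the 8 CEM RES arrays.

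KAT5 fell in CEM RES in both comparisons, by the largest amount of all members with FK866 and by somewhat less than the downstream NCOA1 probe in mock cells. The log2 signal was 11.33, 11.17 and 10.55 in mock CEM PA and 9.93, 9.53, 9.98 and 9.90 in mock CEM RES. With FK866 it was 11.73 and 11.37 in CEM PA against 9.69, 9.74, 9.94 and 9.90 in CEM RES. Every CEM RES array was below every CEM PA array. The mock groups differed 2.27-fold (log2 difference -1.19, standard error 0.20, limma adjusted p = 0.000452) and the FK866 groups 3.33-fold (log2 difference -1.73, standard error 0.22, limma adjusted p = 0.000162). It was called in both comparisons under all 27 alternatives.

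KAT2A was lower in CEM RES by a smaller amount, and its paralog KAT2B did not differ detectably. KAT2A measured 14.16, 14.39 and 14.44 in mock CEM PA and 13.68, 13.71, 13.42 and 13.47 in mock CEM RES. With FK866 it was 14.17 and 14.32 in CEM PA against 13.71, 13.78, 13.77 and 13.53 in CEM RES, again without overlap between the lines. The log2 difference was -0.76 in mock cells (1.69-fold lower, standard error 0.14, limma adjusted p = 0.000817) and -0.54 with FK866 (standard error 0.16, limma adjusted p = 0.0174). Without CEM PA FK866 replicate 1 the latter was -0.62 (limma adjusted p = 0.063) and without replicate 2 it was -0.47 (limma adjusted p = 0.135), of similar size but no longer called with 1 array in that group. KAT2B had a log2 signal of 8.79, 8.88 and 9.12 in mock CEM PA and of 9.0, 8.74, 8.48 and 8.59 in mock CEM RES, with overlapping groups. Its log2 difference was -0.23 (95% confidence interval -0.65 to 0.19) in mock cells and 0.37 (-0.10 to 0.84) with FK866. The within-array difference of KAT2A less KAT2B was 0.53 log2 units smaller in mock CEM RES than in mock CEM PA, and its values did not overlap between the lines.

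Both probes of NCOA1, the steroid receptor coactivator SRC-1, were lower in CEM RES. The upstream probe measured 10.67, 10.40 and 10.40 in mock CEM PA and 10.16, 9.92, 9.76 and 9.95 in mock CEM RES, a log2 difference of -0.54 (standard error 0.15, limma adjusted p = 0.0106). The downstream probe measured 6.21, 5.50 and 6.46 in mock CEM PA and 5.11, 5.09, 4.35 and 4.69 in mock CEM RES, a log2 difference of -1.24 (standard error 0.31, limma adjusted p = 0.00566). With FK866 the upstream probe read 10.58 and 10.64 in CEM PA against 9.92, 10.16, 9.97 and 9.71 in CEM RES, and the downstream probe 6.27 and 6.46 against 4.98, 4.98, 4.00 and 5.17. Neither probe overlapped between the lines. The log2 differences with FK866 were -0.67 (limma adjusted p = 0.00984) and -1.59 (limma adjusted p = 0.00422). With normexp background correction those of the downstream probe were -0.57 in mock cells and -0.74 with FK866, both still called. NCOA3, the coactivator SRC-3, is spotted 10 times, and its spots agreed within an SD of 0.04 to 0.12 log2 units on each array, but its CEM PA arrays spread widely. It read 6.97, 7.72 and 8.36 in mock CEM PA and 7.90, 7.90, 7.98 and 8.04 in mock CEM RES, a log2 difference of 0.27 (95% confidence interval -0.32 to 0.86).

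The probes of TAF1 gave opposite results. The upstream probe, also spotted 10 times, had an SD over its spots of 0.05 to 0.35 log2 units, highest on mock CEM RES replicate 1. This probe had a log2 signal of 6.37, 6.90 and 6.93 in mock CEM PA and of 7.60, 7.82, 7.62 and 7.45 in mock CEM RES. It was 1.85-fold higher in CEM RES (log2 difference 0.89, standard error 0.21, limma adjusted p = 0.0039). The downstream probe had a log2 signal of 11.76, 11.67 and 12.04 in mock CEM PA and of 11.42, 11.14, 10.90 and 10.99 in mock CEM RES, and was 1.64-fold lower (log2 difference -0.71, standard error 0.18, limma adjusted p = 0.00581). With FK866 the downstream probe was again lower (11.91 and 11.96 in CEM PA, 11.48, 11.03, 10.91 and 11.03 in CEM RES, log2 difference -0.83, limma adjusted p = 0.00737), while the upstream one overlapped (6.83 and 7.26 against 7.80, 7.79, 7.38 and 7.17, log2 difference 0.49, limma adjusted p = 0.122). Within each array the upstream less the downstream signal rose by 1.60 log2 units from mock CEM PA to mock CEM RES, without overlap between the lines, although both probes were designed on the same transcript. No single direction can therefore be given for TAF1, and averaging its probes left a log2 difference of 0.09.

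HAT1 did not differ detectably between the lines. It read 13.41, 13.58 and 13.42 in mock CEM PA and 13.40, 13.20, 13.65 and 13.34 in mock CEM RES. The log2 difference was -0.07 with a 95% confidence interval from -0.39 to 0.25, and a 1.5-fold change in either direction lies outside this interval. With FK866 the difference was 0.32 (-0.04 to 0.69), and all 4 CEM RES arrays (13.50, 13.37, 13.69 and 13.51) were above both CEM PA arrays (13.04 and 13.34), without a call in limma (adjusted p = 0.148).

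With FK866 in both lines 6 of 11 probes were called between CEM RES and CEM PA, where 36.0% of all probes were called. EP300 was the 1 higher probe (18.0% of all probes), and KAT5, KAT2A, both NCOA1 probes and the downstream TAF1 probe were the 5 lower ones (18.0% of all probes). The groups were separated for 8 member probes, where 57.8% of all probes were separated. The mock and FK866 comparisons between the lines shared no array but shared the scan sessions.

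**Figure D2:**
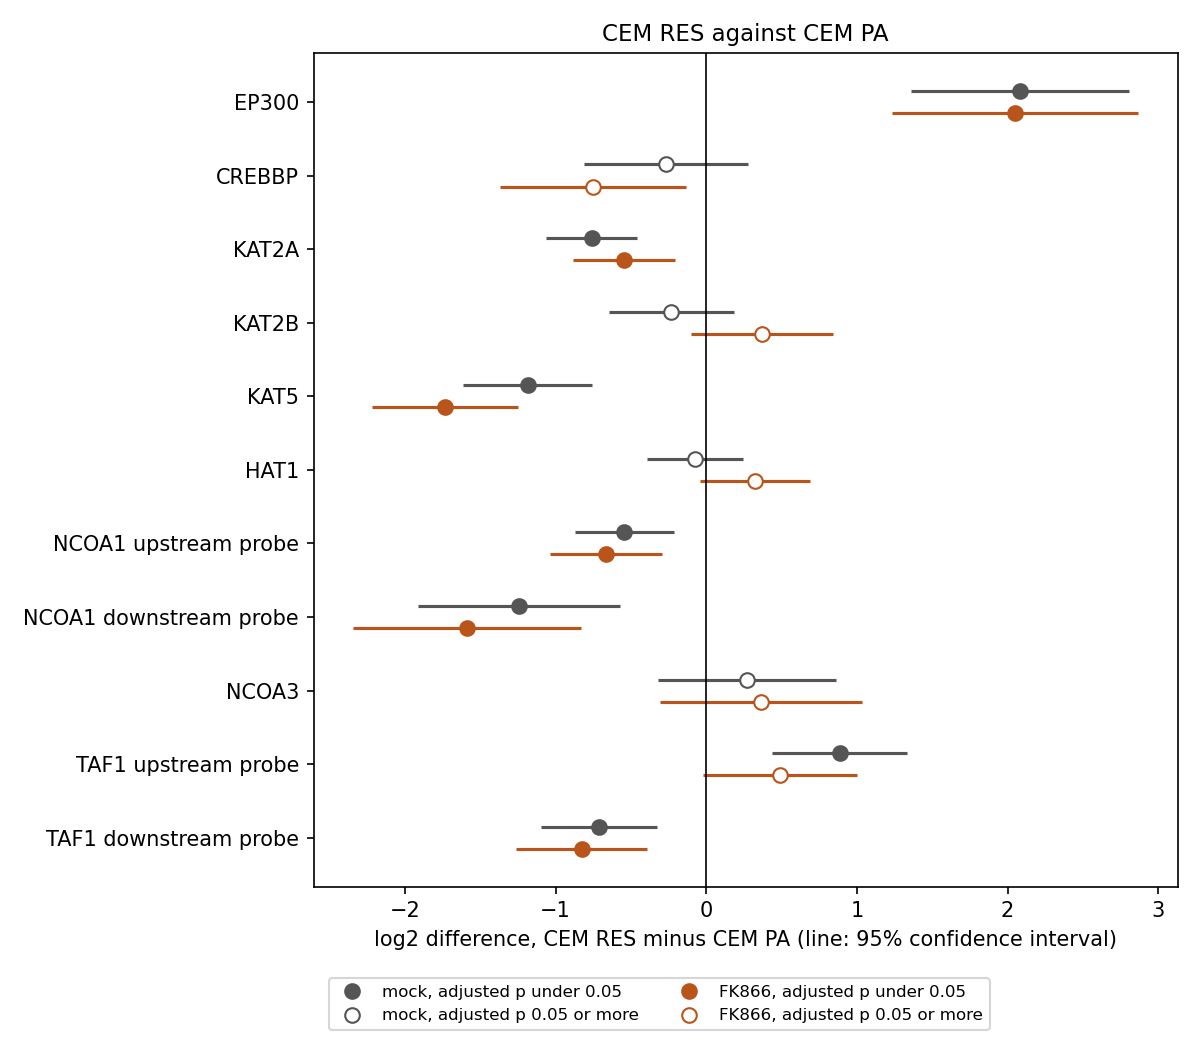
Log2 difference of CEM RES minus CEM PA (horizontal axis) for the 11 probes (vertical axis) in mock cells (grey) and with FK866 (orange). Lines are 95% confidence intervals, filled points had a limma adjusted p under 0.05. EP300 stands at 2.08 and 2.05, KAT5 at -1.19 and -1.73, and the TAF1 probes on opposite sides of 0.

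The second comparison was between FK866 and mock within each line. In CEM PA 0 of 11 probes were called, where 1.53% of all probes were called, and 1 member had an unadjusted p under 0.05 in limma, as did 3271 of all 22751 probes. The 348 calls over all probes were 33 and 32 without FK866 replicate 1 or 2 and 3 when only the groups compared were fitted. At the study's double threshold, an unadjusted p under 0.05 and an absolute log2 difference over 0.75, 0 of 11 member probes passed, where 6.69% of all probes passed. KAT5 had the lowest p (log2 difference 0.53, 95% confidence interval 0.02 to 1.04, limma adjusted p = 0.321). The 2 FK866 arrays lay outside the range of the 3 mock arrays for 5 of 11 probes, where 34.8% of all probes did so. EP300, CREBBP and KAT5 lay above, and KAT2B and HAT1 below.

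For EP300 the FK866 arrays read 6.37 and 6.35 and the mock arrays at most 5.99, a log2 difference of 0.45 (95% confidence interval -0.41 to 1.31). CREBBP read 8.87 and 9.03 against at most 8.56 in mock cells, a log2 difference of 0.58 (-0.07 to 1.24, limma adjusted p = 0.41, and 0.0797 with the replicate number as a block). KAT2B read 8.29 and 8.76 against at least 8.79, a log2 difference of -0.41 (-0.90 to 0.09), and HAT1 read 13.04 and 13.34 against at least 13.41, a difference of -0.28 (-0.66 to 0.10). Within scan sessions 1 and 2 the log2 differences were 0.50 and 0.42 for EP300, 0.59 and 0.62 for CREBBP, 0.40 and 0.51 for KAT5, -0.50 and -0.24 for KAT2B and -0.37 and -0.16 for HAT1. Of all 11 probes 9 had the same sign in both sessions, which groups without overlap fix for these 5. With only 2 FK866 arrays the intervals reach past a 1.5-fold change for 8 of the 11 probes, so a change of that size can be neither called nor set aside for them. NCOA3 moved more between sessions than with the drug (0.01), as its mock arrays of session 2 were 1.07 log2 units above that of session 1. The same held in size for the upstream TAF1 probe (0.54 between sessions, 0.31 with the drug), the upstream NCOA1 probe (-0.27 and 0.12) and KAT2A (0.26 and -0.08). KAT5 moved by -0.47 between sessions and by 0.53 with the drug.

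Re-exposure of CEM RES to FK866 was followed by no detectable change of any member. In limma 0 of 11 probes were called and 0 had an unadjusted p under 0.05. Over all probes 0 were called (0% of 22751), 1171 had an unadjusted p under 0.05, and 1.30% passed the double threshold, as did 0 member probes. All 11 probes overlapped between mock and FK866 arrays, where 2.91% of all probes did not. The log2 differences ran from -0.09 for the upstream TAF1 probe to 0.42 for EP300 (95% confidence interval -0.25 to 1.08). The intervals stayed within a 1.5-fold change in either direction for 7 of 11 probes, among them KAT2A (0.13, -0.15 to 0.41) and HAT1 (0.12, -0.18 to 0.42).

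The difference between both responses, an interaction term of that model, was called for 0 of 11 probes, where 0.413% of all probes were called. KAT2B had the lowest p (log2 difference 0.60 between the responses, 95% confidence interval -0.03 to 1.23, limma adjusted p = 0.43), followed by KAT5 (-0.55, -1.19 to 0.10, limma adjusted p = 0.489). A different response of these enzymes in the resistant line was therefore not detectable with these arrays.

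**Figure D3:**
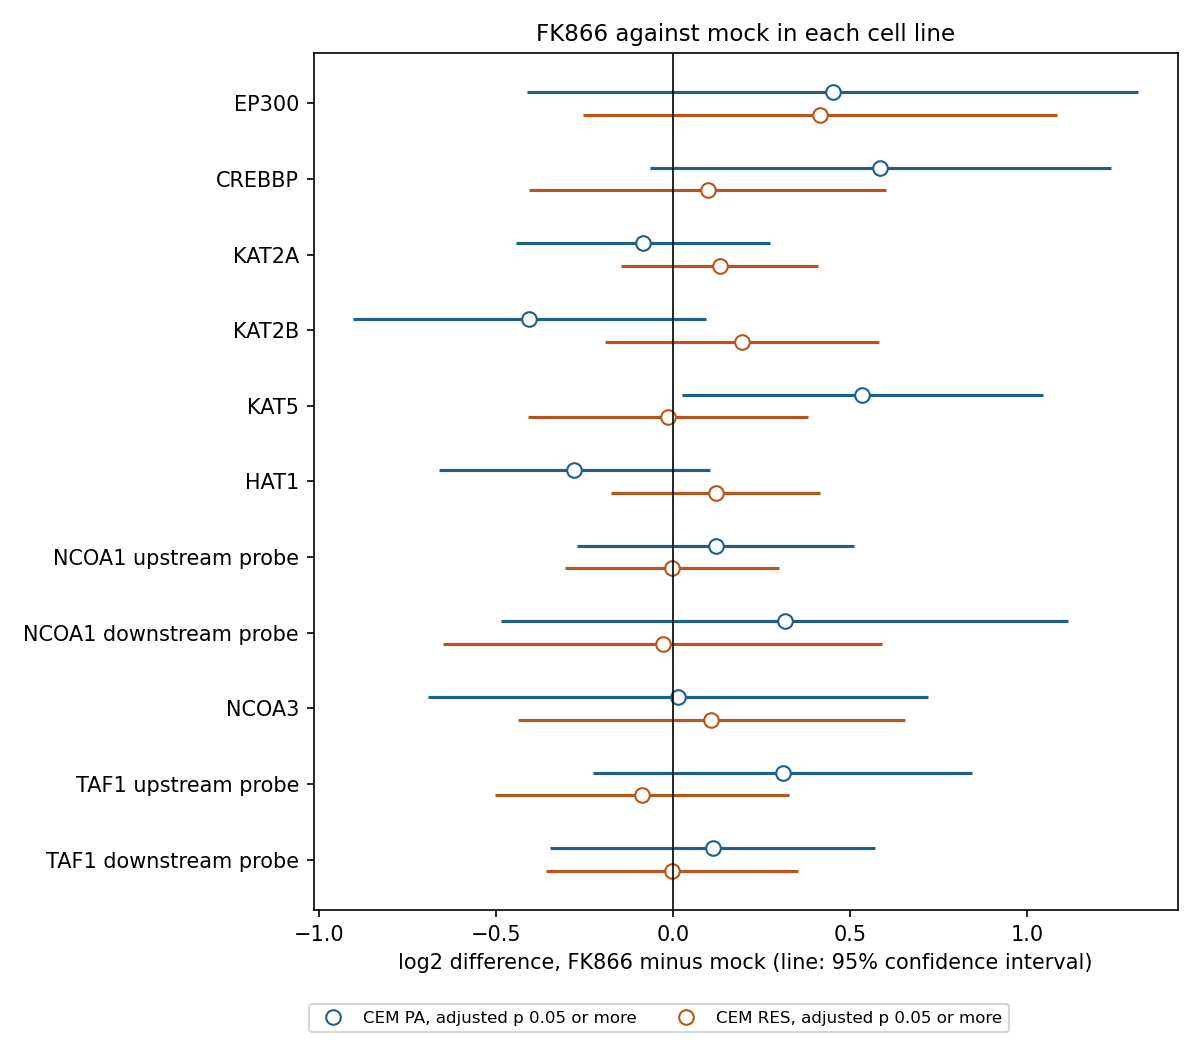
Log2 difference of FK866 minus mock (horizontal axis) for the 11 probes (vertical axis) in CEM PA (blue) and CEM RES (orange). Lines are 95% confidence intervals, and open points mark a limma adjusted p of 0.05 or more, which held for all 11 probes in both lines. The largest difference is 0.58, for CREBBP in CEM PA.

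The partners, substrates and readers of these enzymes were then described from 9 gene lists, with the kept probe of highest mean signal standing for each gene and 151 genes in all besides the members. Over all 17594 genes, 24.6% were higher and 22.8% lower in mock CEM RES at the same threshold. The lists together had 29 genes higher and 37 lower. Of the 17 listed factors that recruit CBP and p300 or act with them, 3 were higher and 4 lower, with a median log2 difference of -0.15. The 3 higher ones included CARM1 (0.86), which is not itself a recruiting factor. CREB1, the transcription factor that recruits CBP and p300, was higher, with a log2 signal of 7.29 ± 0.36 (SD, n = 3) in mock CEM PA, 9.0 ± 0.29 (SD, n = 4) in mock CEM RES and a log2 difference of 1.71 (limma adjusted p = 4.3e-05). CRTC1 and CRTC2, coactivators that bind CREB1, were lower by log2 differences of -2.06 (limma adjusted p = 0.000134) and -1.33 (limma adjusted p = 0.000335). ATF2 rose (0.78) and ATF1 fell (-0.97). The related CREM (0.07) and CRTC3 (-0.33) were not called. With FK866 in both lines 2 of the 17 were higher and 6 lower, where 18.5% of all genes were higher and 16.8% lower. The rise of ATF2 was not seen there, with means of 9.47 in CEM PA and 9.27 in CEM RES.

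Of the SAGA and ATAC subunits, the partners of KAT2A and KAT2B, 11 of 24 were higher and 4 lower in mock CEM RES, with a median log2 difference of 0.12 where that of all genes was 0.04. TAF9B (2.10), SGF29 (1.47) and ZZZ3 (1.18) rose most, and WDR5 (-1.36), YEATS2 (-1.23) and MBIP (-0.51) fell most. TAF9B had an SD of 0.82 among the mock CEM PA arrays. With FK866 the means in CEM PA and CEM RES were 8.31 and 9.12 for TAF9B and 12.96 and 12.90 for YEATS2. The catalytic subunit KAT2A fell, while more of its partners were called higher than lower. With FK866 in both lines only 4 of these 24 genes were higher and 3 lower, where 18.5% of all genes were higher and 16.8% lower.

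KAT5 fell with few other NuA4 subunits. Of 18, EPC1 (log2 difference 1.95, with an SD of 1.15 among the mock CEM PA arrays) and VPS72 (0.81) were higher and MBTD1 (-0.47) and MRGBP (-0.45) lower, and the median was -0.03. The list of MYST complex partners holds mostly, but not only, subunits of complexes of the related acetyltransferases KAT6A, KAT6B, KAT7 and KAT8. Of its 20 genes 9 were lower and 1, JADE1 (0.97), was higher, with a median log2 difference of -0.41. BRD1 had the largest fall, with means of 12.70 ± 0.26 (SD, n = 3) and 10.86 ± 0.39 (SD, n = 4) and a log2 difference of -1.84 (limma adjusted p = 7.87e-05), followed by ING5 (-1.34) and KANSL3 (-1.17). With FK866 the counts were 8 lower and 2 higher, the median -0.47. Of the 16 other lysine acetyltransferases, 4 were lower, GTF3C4 (-0.78), ESCO2 (-0.77) and ATAT1 (-0.73) by the largest amounts, and 1, NAT10 (0.55), was higher.

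TFIID, the complex of TAF1, held the largest single difference of these lists. TAF13, a histone-fold subunit, measured 5.66 ± 0.12 (SD, n = 3) on the log2 scale in mock CEM PA, 6.68 ± 0.08 (SD, n = 2) with FK866 in CEM PA, 8.51 ± 0.16 (SD, n = 4) in mock CEM RES and 8.23 ± 0.28 (SD, n = 4) with FK866 in CEM RES. The lines differed by 2.86 log2 units in mock cells (7.26-fold, limma adjusted p = 5.04e-07). It also rose with FK866 in CEM PA (log2 difference 1.03, limma adjusted p = 0.0271), and the responses of the lines differed by -1.31 (limma adjusted p = 0.0489). Both calls rest on the 2 FK866 arrays of CEM PA, and TAF13 was not examined in the alternative fits. TAF10 (1.16) and TAF9 (0.83) were higher too and TAF7 (-0.44) lower in mock CEM RES, 3 and 1 of 14 genes. TAF10 and TAF9 also count among the SAGA and ATAC subunits above. TAF13 was 1 of 2 list genes called with FK866 in CEM PA, where 0.568% of all genes were higher and 0.415% lower. The other was TADA2A, a subunit of ATAC, with means of 8.56 ± 0.08 (SD, n = 3) in mock and 9.47 ± 0.04 (SD, n = 2) in FK866 cells, higher by 0.91 log2 units (limma adjusted p = 0.018). TAF13 was the 1 list gene with a called difference between the responses, where 0.193% of all genes were called.

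HAT1 partners and histone chaperones were divided, with IPO4 (1.23) and ASF1B (0.54) higher and NASP (-0.56) and CHAF1B (-0.34) lower, out of 8. Of the 13 kept genes that supply acetyl-CoA, 3 were higher and 3 lower. CRAT, which moves acetyl groups between carnitine and CoA, fell 6.80-fold, with means of 10.71 ± 0.20 (SD, n = 3) and 7.95 ± 0.61 (SD, n = 4) on the log2 scale (log2 difference -2.76, limma adjusted p = 3.89e-05), and ACSS1, the mitochondrial acetyl-CoA synthetase, fell by 0.86 log2 units. SLC25A1, the mitochondrial citrate carrier (0.66), and the pyruvate dehydrogenase subunits PDHB (0.50) and PDHA1 (0.38) were higher. Of 25 genes listed as acetyl-lysine readers, proteins with bromodomains or YEATS domains among them, 5 were higher and 8 lower in mock CEM RES. Binding to acetyl-lysine was not checked for each of them. TRIM33 (-1.69), BRD2 (-0.996) and TRIM24 (-0.987) fell most, and BAZ1B (0.88), TRIM28 (0.82) and BAZ1A (0.80) rose most.

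**Figure D4:**
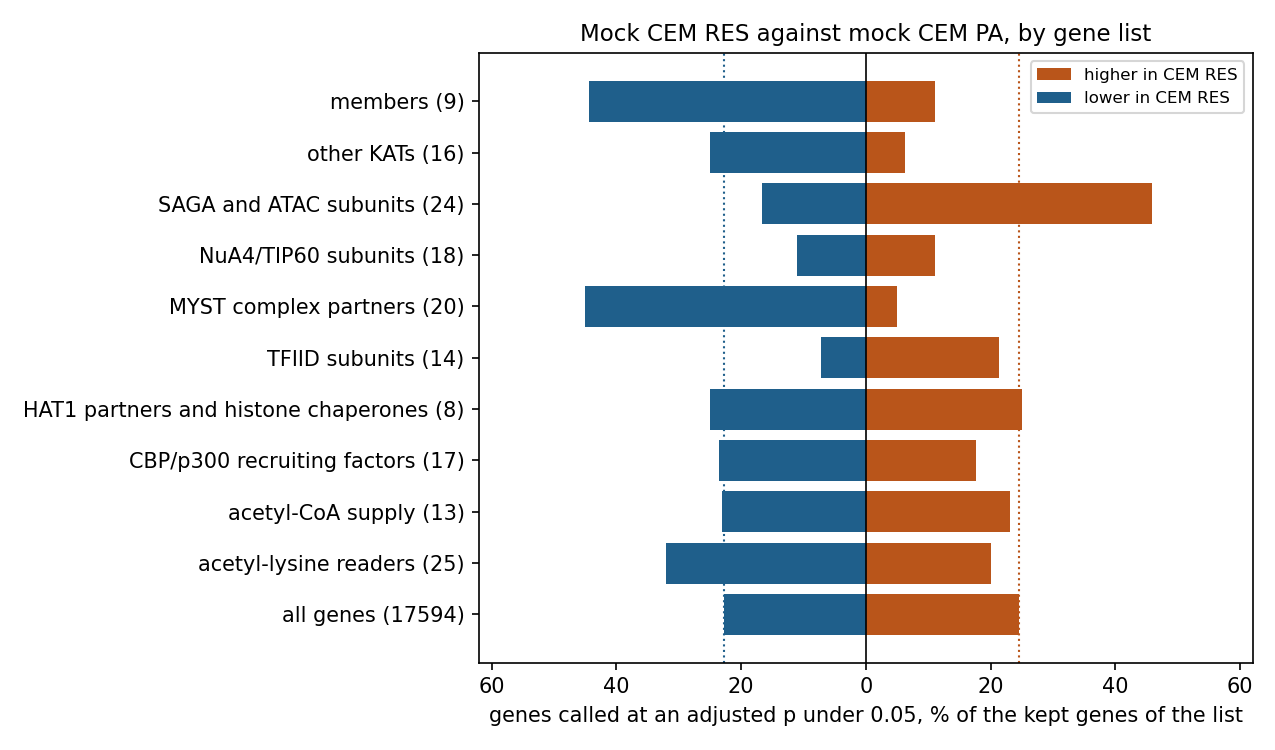
Share of the kept genes of each list (vertical axis, number of genes in brackets) that were called at an adjusted p under 0.05 in mock CEM RES against mock CEM PA, in percent (horizontal axis), higher to the right and lower to the left. Dotted lines and the lowest bars give the shares of all genes, 24.6% and 22.8%. Some genes stand in several lists, among them TAF9 and TAF10. The SAGA and ATAC list leans to higher (11 of 24), and the MYST complex partners (9 of 20) and the members (4 of 9, with TAF1 counted by its downstream probe alone) to lower.

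The promoters of EP300 and KAT5 are shown because these genes moved in opposite directions with the lowest p values of the members. RefSeq gene starts on GRCh38.p14 gave windows of 250 bases before the start, 2 each for CREBBP and TAF1, 3 for NCOA1 and 1 for each other member. These windows were searched on both strands for the full cyclic AMP response element TGACGTCA, its half-site TGACG and the ETS core CCGGAAG, and the half-site is part of the full element. The windows run 5′ to 3′ with matches in capitals, for EP300 at chr22:41092342-41092591 (plus strand) and for KAT5 at chr11:65712002-65712251 (plus strand).
EP300: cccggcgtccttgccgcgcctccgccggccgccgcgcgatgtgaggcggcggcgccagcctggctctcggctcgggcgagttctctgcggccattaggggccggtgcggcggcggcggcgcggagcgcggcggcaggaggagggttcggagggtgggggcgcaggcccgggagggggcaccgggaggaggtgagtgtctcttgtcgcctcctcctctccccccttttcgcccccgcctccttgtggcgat
KAT5: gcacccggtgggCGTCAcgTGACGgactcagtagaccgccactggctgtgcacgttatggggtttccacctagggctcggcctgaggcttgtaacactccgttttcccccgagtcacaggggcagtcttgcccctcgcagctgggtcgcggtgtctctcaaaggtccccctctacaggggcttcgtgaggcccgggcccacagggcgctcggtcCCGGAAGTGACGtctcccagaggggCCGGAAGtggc

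The KAT5 window held 3 half-sites and 2 ETS cores, and that of EP300 held neither. Over all 35116 windows of this length, 21.2% held a half-site, 8.52% an ETS core and 1.65% the full element, which was in none of the members' windows. Among the other members, whether called or not, CREBBP and HAT1 held 2 half-sites each in a window, KAT2A and TAF1 held 1, and HAT1 and TAF1 held 1 ETS core each. The windows of NCOA1, KAT2B and NCOA3 held neither motif.

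Across the 13 arrays, after the mean of each line was removed, the gene most like EP300 was ZNF628 (Pearson r = 0.961), that most like KAT5 was PTRHD1 (0.959) and that most like CREBBP was HNRNPUL2 (0.940). The others were GGA3 for KAT2A, RBM12B for KAT2B, MDP1 for HAT1, XIRP1 for NCOA1, BBX for NCOA3 and CAMK2G for TAF1, with r from 0.886 to 0.940. Each is the highest of 17564 genes over 13 arrays that share treatment and session, and is given as a description.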

How the data were processed

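The authors deposited the spot intensity of each array as Agilent Feature Extraction wrote it (version 10.7.7.1 in the submitters' processing notes, 10.7.3.1 in the file headers), with background and spatial trend already removed, and a table of log2 values quantile normalized by the authors. Here log2 of the processed signal was quantile normalized, spots marked as outliers were set to missing, control spots removed and spots of a probe averaged. A probe was kept if at least 1 group had it well above background throughout. The 4 groups were fitted in one limma 3.58.1 model (R 4.3.3), two-sided, with Benjamini-Hochberg adjustment over 22751 probes. From each list, up to 3 called genes per direction with the largest difference are named, and not all of them are printed. Members and lists were chosen with earlier results of these data known. Arrays of equal replicate number deviated together in CEM RES (r across probes 0.199, 0.388, 0.474 and 0.290) and in CEM PA (0.460 and 0.353), so a replicate block was an alternative. Other alternatives were 75th percentile scaling, normexp (offset 50), filters, outlier spots kept, 1 probe or the mean of probes for each gene, the deposited table, only the compared groups, slide or session as a random block, array weights, a variance trend and each array left out. The procedure was tested on simulated data. The number of arrays limits the precision. Array gene names were kept. Figures used matplotlib 3.10.9.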

Additional observations from a re-analysis of the deposited data

Results flagged for a closer look

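In 2 of 22 checked groups of 4 arrays, 1 array stood apart from the others, where chance alone gives about 5%. For CREBBP in CEM RES with FK866 the gap to the nearest array was 0.849 of the group's range, past Dixon's 95% critical value. Replicate 3 read 7.78 and the others 8.29 to 8.39. For the downstream NCOA1 probe in the same group the ratio was 0.832, with replicate 3 at 4.00 and the others from 4.98 to 5.17. Mock CEM RES replicate 3 was also the lowest of its group for both probes, at 7.43 and 4.35.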

How the results depend on the processing

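With the replicate block the number of member probes called was unchanged, at 0 for FK866 in CEM PA, 0 in CEM RES, 7 and 6 between the lines with mock and FK866, and 0 for the difference between the responses, while over all probes it raised the calls from 348 to 1218 for FK866 in CEM PA and from 94 to 486 for the difference between the responses. The mean of a gene's probes gave 4 called genes between the mock lines in place of 7 probes, because the opposite TAF1 probes cancelled (log2 difference 0.0884, limma adjusted p = 0.693) and each gene counts once. Leaving out single arrays gave 3 to 7 called member probes between the lines with FK866. The low of 3 came without either FK866 array of CEM PA, where KAT2A, the upstream NCOA1 probe and the downstream TAF1 probe lost the call and the remaining array was taken to vary as arrays elsewhere do. The calls over all probes fell there from 8186 to 4189 and 5017, and the log2 differences stayed similar, at -0.62 and -0.47 for KAT2A, -0.69 and -0.64 for the upstream NCOA1 probe and -0.85 and -0.80 for the downstream TAF1 probe. EP300 and KAT5 were called in both comparisons between the lines under all 27 alternatives, and the mock log2 difference of EP300 ran from 1.38 to 2.46. The mean of its probes put NCOA1 at -0.89 in mock cells and -1.13 with FK866. All 11 tested probes were well above background on all 13 arrays, yet normexp changed the mock log2 differences of EP300 and of the downstream NCOA1 probe by over 1.5 times.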
